A study of Homo sapiens with 9 samples.

Results

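TF, CP and HPX encode transferrin, ceruloplasmin and hemopexin, the plasma carriers of iron, copper and heme, and each was read by 1 probe set in A549 cells. They are 3 of the 14884 genes that the array annotation names here. They were chosen by gene symbol, with their log2 intensities in the 3 culture conditions and in the same-numbered low-attachment pairs already known. Their levels and differences are therefore given as a description, with no test. The probe sets were 16945870 for TF and 16960304 for CP, both genes of chromosome 3, and 16735054 for HPX, a gene of chromosome 11.

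A549 is an established human lung adenocarcinoma line that normally grows attached to plastic, and all groups were this 1 line in DMEM with 10% FBS, kept for 5 days in 96-well plates. The groups were low-attachment plates with 0.015% (w/v) FP001, an additive whose nature the labels do not give, low-attachment plates with normal medium, and ordinary attachment plates with normal medium, where Milli-Q water took the place of the additive. Each group had 3 arrays, and nothing says that these came from separate cultures, so the spread between arrays may be technical. Attachment replicate 1 was left out, because its ranks followed no other array (highest rank correlation −0.00191) and its median intensity was 15.8, so 2 attachment arrays were used. The 8 arrays used were alike, with medians of 23.3 to 24.1 and rank correlations of 0.961 to 0.985. Their number limits the precision of every value.

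Transferrin binds ferric iron in plasma and delivers it to cells through the transferrin receptor. Ceruloplasmin holds most of the copper in plasma and is a ferroxidase, which oxidises iron so that transferrin can take it up. Hemopexin binds free heme and is cleared through the receptor LRP1. All are made mainly by hepatocytes, are secreted, and change in blood during the acute-phase response, in which ceruloplasmin goes up and transferrin goes down. Airway epithelium makes ceruloplasmin as well, and A549 cells are used as a model of the alveolar epithelium.

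The 3 genes showed 3 different patterns. TF read lowest with FP001, CP read highest on low-attachment plates in normal medium with FP001 in between, and HPX differed little between the group means. TF and CP were both lower with FP001 than in normal medium on low-attachment plates, in each of the 3 same-numbered pairs. For both, these groups did not overlap, as for 9.01% of all genes tested in that direction. The share of all genes lower in each of the 3 pairs was not counted. Against attachment plates TF and CP went opposite ways with FP001, TF lower and CP higher. Total RNA of whole wells was read, so fewer cells that express a gene and less RNA per cell cannot be told apart.

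**Figure D1:**
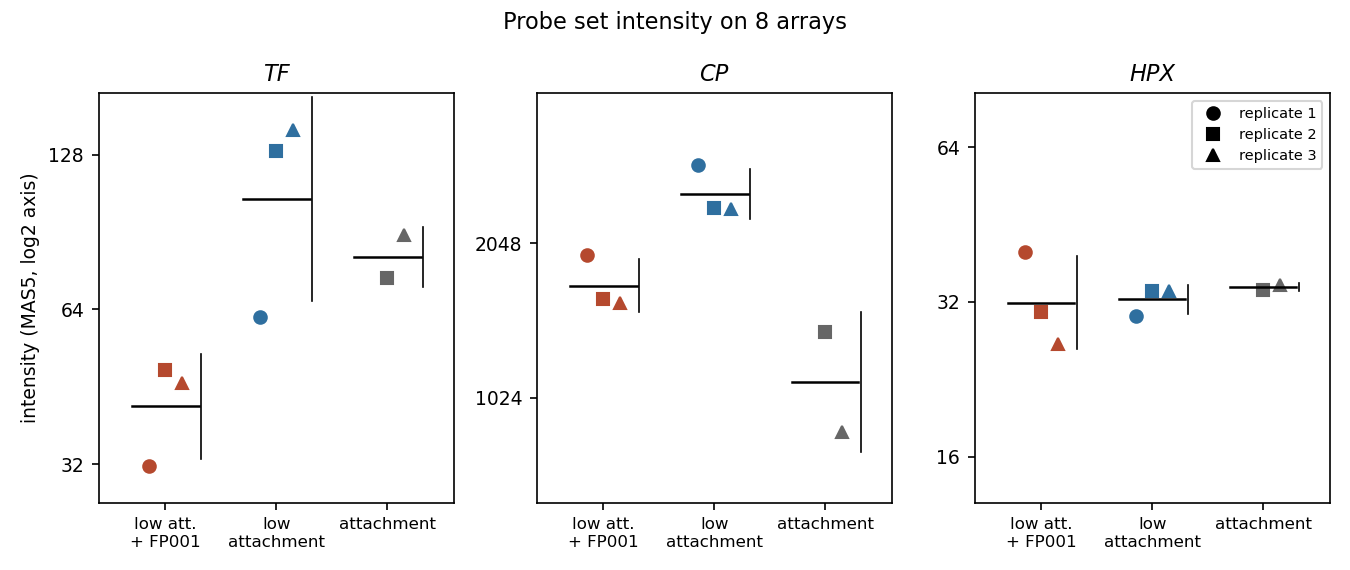
Intensity of TF, CP and HPX (log2 axis, each panel spanning the same ratio) on the 8 arrays, with low attachment + FP001 left, low attachment in the middle and attachment right. Symbols are replicate numbers, horizontal lines group means of log2 intensity and vertical lines 1 SD (n = 3, 3 and 2). The 3 FP001 arrays lie below all others for TF, the CP groups do not overlap, and the HPX values lie between 26.5 and 40.0.

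TF, the iron carrier, had intensities of 31.7, 48.9 and 46.0 with FP001, against 61.9, 130.0 and 142.8 on low-attachment plates in normal medium and 73.7 and 89.2 on attachment plates. The FP001 arrays lay below every other array, whereas the low-attachment arrays in normal medium lay on both sides of the attachment arrays. The mean log2 intensity was 5.37 ± 0.34 with FP001 (SD, n = 3), 6.71 ± 0.66 in normal medium (n = 3) and 6.34 ± 0.19 on attachment plates (n = 2). With FP001 the TF signal was dim, at 1.34, 2.03 and 1.95 times the array's median, against 2.578 to 6.025 times on the other arrays used. There is no detection call, so how near to background TF read with FP001 was not settled, which limits its fold changes.

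With FP001, TF was 2.53-fold lower than in normal medium on low-attachment plates (log2 difference −1.34 ± 0.28, SE from limma). By size this was the first of the 10916 genes tested in that comparison. The 2 groups did not overlap, which held in the same direction for 9.01% of those genes, and the lowest array in normal medium was 1.27-fold above the highest FP001 array. Against attachment plates TF was 1.95-fold lower with FP001 (−0.97 ± 0.31), without overlap, as for 26.2% of the genes in that direction. In normal medium the difference from attachment plates was 0.37 ± 0.31, of about the size of its error, with overlapping groups. With the replicate number as a block it was 0.66 ± 0.15, although the attachment numbers are not shown to pair with the others. Low-attachment replicate 1 set much of that value, which was 0.75 without this array, and without replicate 2 or replicate 3 of the same group it was 0.21 or 0.15. It was 0.23 without attachment replicate 2.

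The RefSeq promoter table (GRCh38.p14) gives TF 2 start sites. The 250 bases before the more downstream start, chr3:133746143-133746392 on the plus strand, are shown because TF is the member that differed most with FP001. The upstream start, with chr3:133661748-133661997 before it, held none of the motifs searched. Capitals mark matches, on either strand, to TTNNGCAA, a pattern bound by C/EBP factors, and to CCAAT, the CCAAT box, which overlap here. ACGTG, the core of hypoxia-response elements, and CTGGGAA, a pattern of interleukin-6 response elements, were searched too.
TF: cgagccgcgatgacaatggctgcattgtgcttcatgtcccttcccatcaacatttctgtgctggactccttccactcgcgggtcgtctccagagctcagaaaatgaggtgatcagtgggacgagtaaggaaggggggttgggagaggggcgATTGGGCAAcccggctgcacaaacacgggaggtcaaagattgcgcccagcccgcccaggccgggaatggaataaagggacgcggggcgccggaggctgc
The C/EBP pattern began 98 bases before the start and the CCAAT box, read on the minus strand, 99 bases before it. Over the 35114 windows of this length in the table, 9.05% held TTNNGCAA, 32% CCAAT, 18.5% ACGTG and 9.15% CTGGGAA, so the patterns are common. Neither ACGTG nor CTGGGAA occurred in these TF windows. A match describes letters only.

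CP, the copper-holding ferroxidase, had intensities of 1938.3, 1592.2 and 1569.2 with FP001, against 2909.1, 2395.9 and 2383.8 on low-attachment plates in normal medium and 1374.7 and 880.4 on attachment plates. Every low-attachment array in normal medium lay above every FP001 array, and every FP001 array above both attachment arrays. The mean log2 intensity was 10.72 ± 0.17 with FP001, 11.32 ± 0.16 in normal medium (SD, n = 3 each) and 10.10 ± 0.45 on attachment plates (n = 2). The signal was strong throughout, at 37.2 to 121 times the array's median.

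In normal medium, CP was 2.32-fold higher on low-attachment than on attachment plates (log2 difference 1.21 ± 0.17, SE). The lowest low-attachment array was 1.73-fold above the highest attachment array, and groups without overlap in this direction were seen for 22.2% of genes. With FP001, CP was 1.54-fold above attachment plates (0.62 ± 0.17), without overlap, as for 26.5% of genes in that direction. The gap there was small, 1.14-fold between the lowest FP001 and the highest attachment array. The 2 attachment arrays themselves were 1.56-fold apart, a wider gap than for 98.3% of genes. The difference from attachment plates with FP001 was accordingly 0.94 without attachment replicate 2 and 0.30 without attachment replicate 3. With FP001, CP was 1.51-fold lower than in normal medium on low-attachment plates (−0.59 ± 0.15), without overlap, as for 9.01% of genes in that direction. This put the CP mean with FP001 51.2% of the way, in log2 units, between attachment and low attachment in normal medium. Leaving out attachment replicate 2 put it 61.4% of the way, and leaving out attachment replicate 3 put it 33.6%.

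HPX, the heme carrier, had intensities of 40.0, 30.5 and 26.5 with FP001, against 30.0, 33.6 and 33.6 on low-attachment plates in normal medium and 33.7 and 34.6 on attachment plates. The FP001 arrays covered the whole range of the other groups and more, and the highest and the lowest of the 8 values were both FP001 arrays. The signal was dim, at 1.12 to 1.69 times the array's median on the 8 arrays, and 13.7% of the genes tested had a lower mean. The deposited table has no detection call, so whether HPX is expressed was not settled here.

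The HPX group means differed by less than their errors. The log2 difference was −0.02 ± 0.15 (SE) for FP001 against normal medium on low-attachment plates, −0.10 ± 0.16 for FP001 against attachment plates, and −0.08 ± 0.16 for low attachment in normal medium against attachment. The sign of both FP001 differences turned without FP001 replicate 3, to 0.11 against normal medium and 0.03 against attachment plates. Against normal medium it also turned without FP001 replicate 2 (0.0073) or without low-attachment replicate 2 or 3 (0.0045 and 0.0042). In normal medium both attachment arrays lay just above the low-attachment arrays, by 1.003-fold, and groups without overlap in this direction were seen for 23.4% of genes.

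The 250 bases before the HPX start, chr11:6440988-6441237 on the minus strand of GRCh38.p14 in RefSeq, are shown beside those of TF because they held the C/EBP, CCAAT and interleukin-6 patterns. Whether these patterns bear on the HPX levels was not tested. Capitals mark the matches, and the 2 CCAAT boxes, on opposite strands, adjoin.
HPX: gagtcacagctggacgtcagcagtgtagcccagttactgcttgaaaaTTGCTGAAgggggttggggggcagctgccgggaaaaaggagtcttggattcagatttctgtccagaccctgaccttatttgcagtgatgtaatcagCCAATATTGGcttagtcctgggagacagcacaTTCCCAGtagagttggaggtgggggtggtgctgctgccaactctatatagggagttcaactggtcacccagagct
The C/EBP pattern began 203 bases before the start, the CCAAT boxes 107 and 102 bases before it, and the interleukin-6 pattern 75 bases before it. Both the C/EBP and the interleukin-6 pattern were read on the strand opposite to the one printed. ACGTG did not occur in this window.

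Same-numbered low-attachment arrays varied together across genes. The deviations of the FP001 and normal-medium arrays from their group means correlated at 0.483, 0.309 and 0.231 for replicates 1, 2 and 3. Across numbers, FP001 replicate 3 correlated at 0.133 with normal-medium replicate 2, and FP001 replicate 2 at 0.0905 with normal-medium replicate 3. Replicate 1 correlated with other numbers at −0.353 to −0.263. Deviations sum to 0 within a group of 3 arrays, so positive values within a number bring negative ones across numbers by construction. The numbers were taken to pair the samples, though pairs 2 and 3 are told apart less clearly than pair 1. Within pairs, CP with FP001 was lower than in normal medium by 1.501-fold, 1.505-fold and 1.519-fold. The SD of these 3 log2 differences was 0.0092, against a median of 0.135 over all genes, and 40 of the 10916 genes had a smaller one. An SD of 3 values is imprecise, and the pair values were known when CP was chosen, so this rank is only a description. TF was lower with FP001 by 1.95-fold, 2.66-fold and 3.10-fold in pairs 1, 2 and 3 (SD 0.34 in log2). HPX had no common direction, at 1.33-fold higher with FP001 in pair 1 and 1.10-fold and 1.27-fold lower in pairs 2 and 3 (SD 0.39). With the replicate number as a block, the difference between FP001 and normal medium was −1.34 ± 0.13 for TF and −0.59 ± 0.10 for CP (SE).

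**Figure D2:**
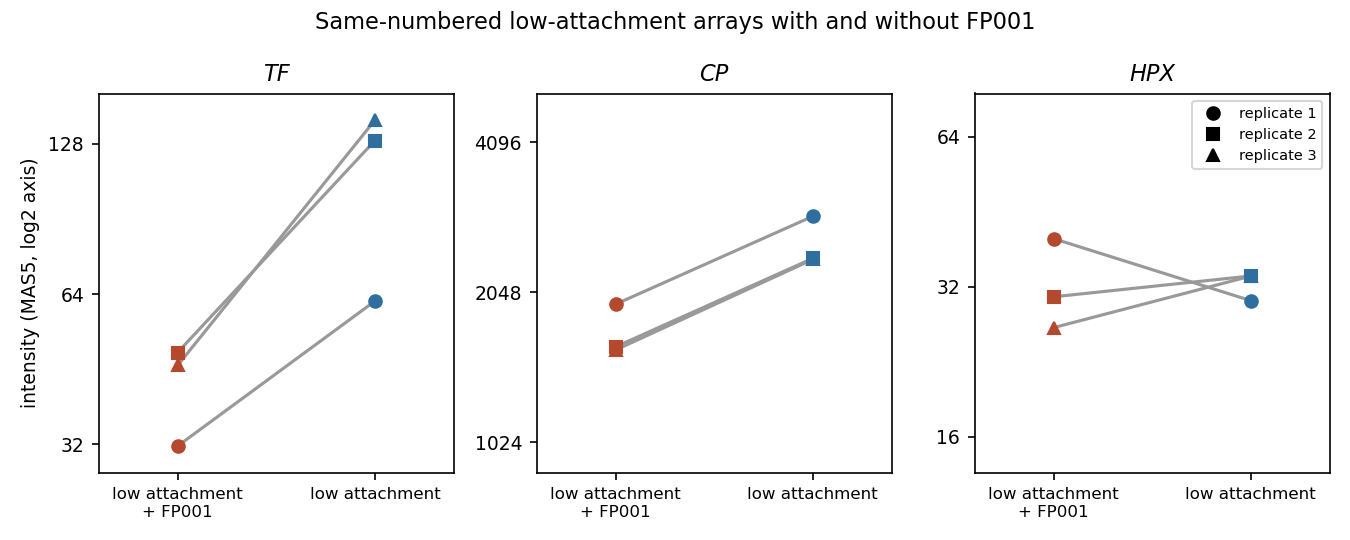
Intensity of TF, CP and HPX (log2 axis, each panel spanning the same ratio) on the same-numbered low-attachment arrays, with FP001 left and normal medium right. Lines join pairs 1 to 3. The CP lines run in parallel (1.501-fold to 1.519-fold lower with FP001), the TF lines slope the same way at different steepness (1.95-fold to 3.10-fold), and the HPX lines cross.

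Replicate 1 stood apart from replicates 2 and 3 in both low-attachment groups. On it, TF was lowest of its group, by 0.39 and 0.76 below the group mean in log2 with FP001 and in normal medium. CP was highest on it, by 0.20 and 0.19. HPX was 0.33 above its group mean with FP001 and 0.11 below it in normal medium. Within groups, all 3 members varied more than most genes. The pooled SD in log2 was 0.48 for TF, 0.25 for CP and 0.20 for HPX, above that of 99.4%, 91.7% and 82.0% of genes, against a median of 0.13.

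The members' profiles were unlike each other. Likeness was measured as the root mean square difference between log2 profiles over the 8 arrays, each centred on its mean, so that 0 is an identical shape and size of change. It was 0.82 between TF and CP, 0.72 between TF and HPX and 0.55 between CP and HPX.

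For CP the most similar of the 10916 genes were CTSO, a lysosomal cysteine protease (0.11), and CFB and CFD (0.15 and 0.16), both serine proteases of the alternative complement pathway. The median gene was 0.53 from CP. Like CP, CFB was lower with FP001 than in normal medium, at 109.1, 90.0 and 90.8 against 182.5, 141.4 and 161.1, and lowest on attachment plates, at 74.0 and 66.9. CFD had 398.8, 333.6 and 339.4 with FP001, against 604.6, 499.0 and 576.6 in normal medium and 350.5 and 250.9 on attachment plates, so that its FP001 and attachment arrays overlapped. CTSO had 107.1, 85.2 and 75.5 with FP001, against 147.9, 107.1 and 109.4 in normal medium and 76.7 and 44.5 on attachment plates, and its attachment replicate 3 was low, as for CP.

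The genes closest to TF were not near it. UPK1A, a urothelial membrane protein, lay at 0.388, the microRNA gene MIR3192 at 0.394 and the non-coding N4BP2L2-IT2 at 0.395, against a median of 0.718, and all were lower with FP001, by 0.72 to 0.88 in log2 against normal medium. HPX was closest to SEC14L6, the kinase gene MAPKAPK2 and the adaptor gene GAB2 (0.051, 0.076 and 0.084, with a median of 0.229), which, like HPX, differed little between groups.

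**Figure D3:**
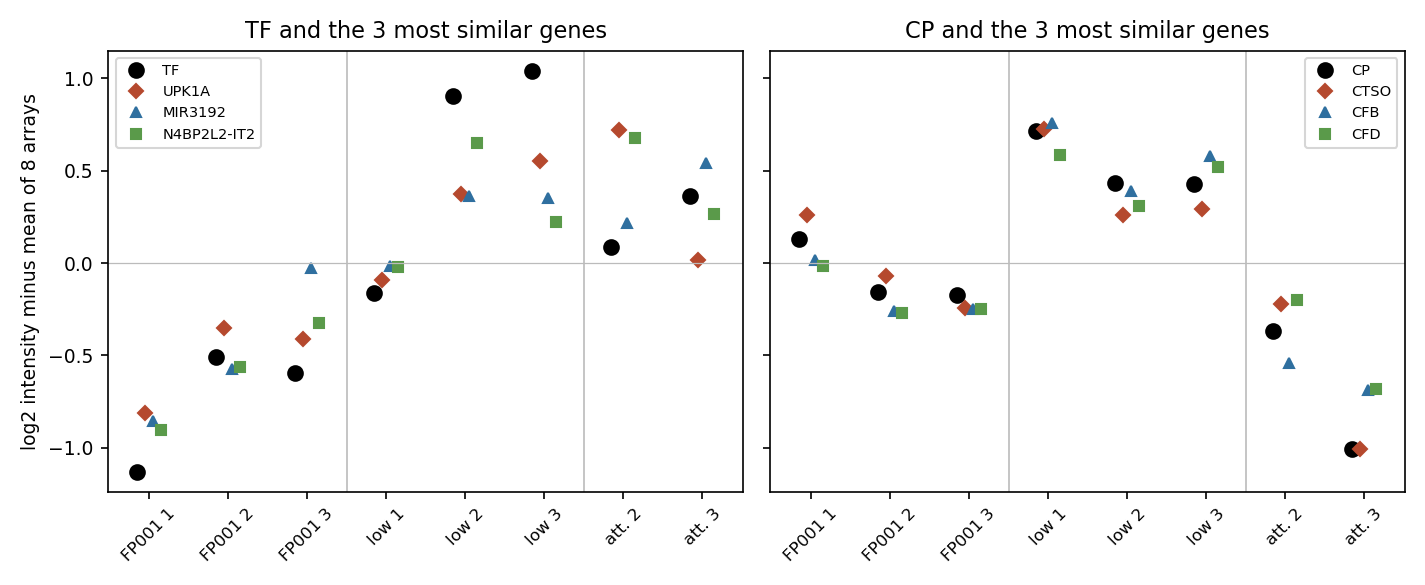
Log2 intensity minus the mean of the 8 arrays for TF and CP (black) and their 3 most similar genes, by array, with FP001 left, low attachment in normal medium (low) in the middle and attachment (att.) right. The CP panel shows CTSO, CFB and CFD close to CP on most arrays (0.11 to 0.16 apart), whereas the TF panel shows a looser set (0.388 to 0.395).

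The partners of these carriers were read from 10 lists of 142 other genes, 90 of them named on the array and 72 tested. The transferrin receptor TFRC, the ferritin genes FTH1 and FTL and the iron exporter SLC40A1 were on the lists but not among the named probe sets. Against attachment plates, 9 of the 72 rose and 23 fell with FP001 (44.4%, against 19.5% of all genes, 8.08% up and 11.4% down). In normal medium on low-attachment plates 9 rose and 11 fell (27.8%, against 10.1% of all genes, 4.31% up and 5.76% down). Both comparisons share the attachment arrays. The lists were chosen with earlier results of these data known, so these shares are a description and no test of enrichment. Listed genes called were 14 with FP001 and 10 in normal medium without attachment replicate 2, and in normal medium 11 without attachment replicate 3 and 13 without low-attachment replicate 2. Between FP001 and normal medium on low-attachment plates 1 of the 72 fell, where 0.110% of all genes were called, and 6 fell with the replicate block, where 1.30% were. Under quantile normalization, 12 of 32 called listed genes rose with FP001 and 11 of 19 in normal medium, and over all genes the share of calls that rose was 56.2% with FP001 and 54.4% in normal medium.

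**Figure D4:**
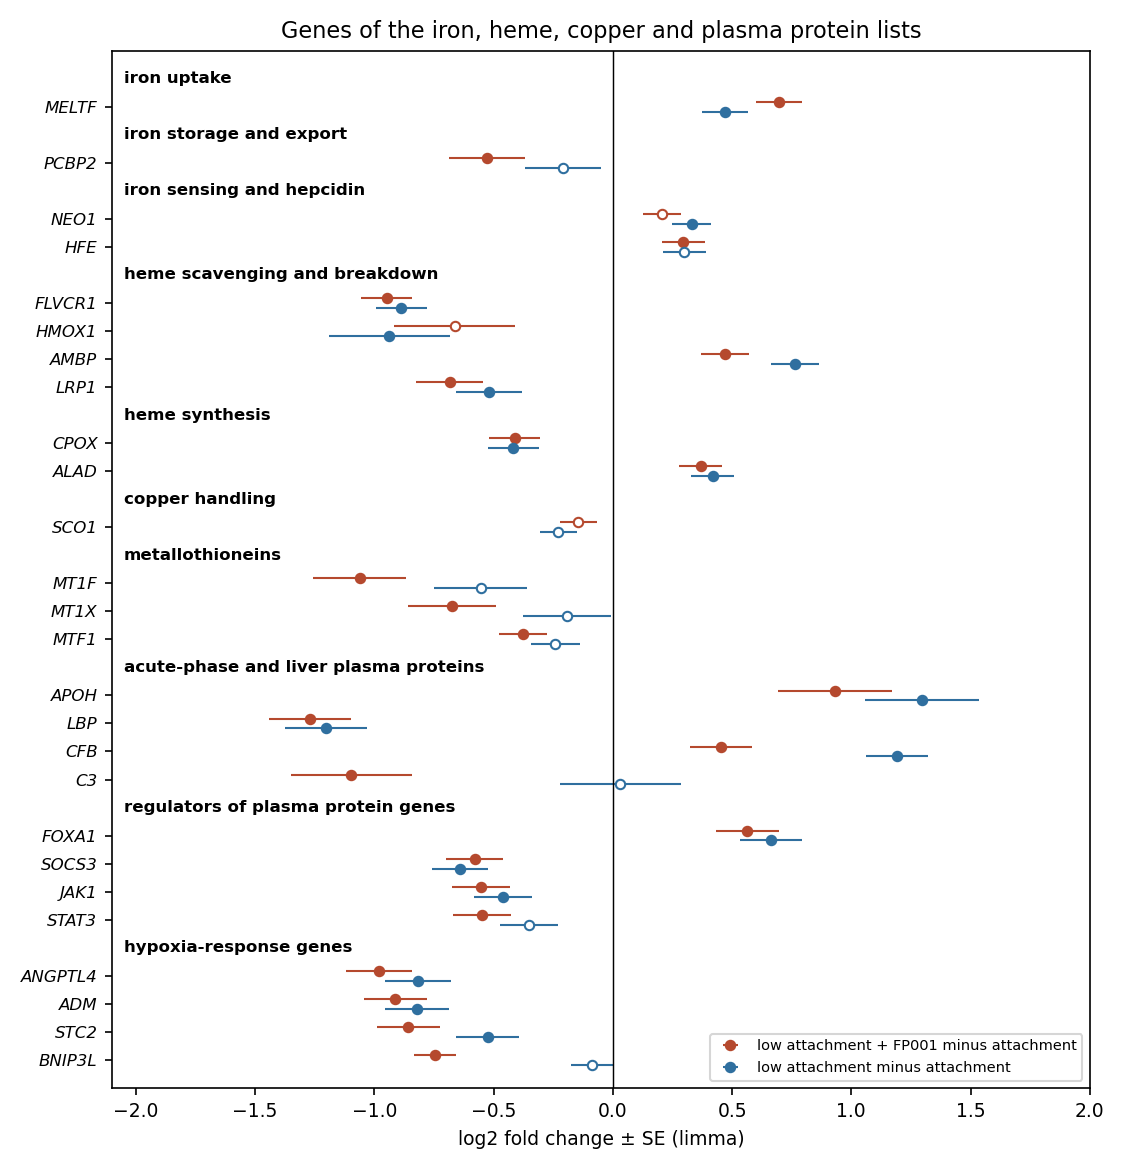
Log2 fold change against attachment plates (bars are 1 SE) of genes from the lists around the 3 carriers, for low attachment + FP001 (upper point) and low attachment in normal medium (lower point). Filled points passed an adjusted p under 0.05 and open points did not. The heme exporter gene FLVCR1 and LRP1 lie left of 0 in both comparisons and MELTF and AMBP, a heme-binding plasma protein gene, right of 0.

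Around TF, 3 iron uptake genes were tested of 11, and MELTF, a membrane-bound relative of transferrin, rose with FP001 against attachment plates, by 0.695 ± 0.096 in log2 (adjusted p = 0.00127), and in normal medium by 0.471 ± 0.096 (adjusted p = 0.0131, and 0.122 without attachment replicate 2). MELTF was also the list's median gene, against medians of 0.018 and 0.0077 over all genes. Of 6 iron sensing and hepcidin genes tested of 11, 1 rose in each comparison with attachment plates, HFE with FP001 and NEO1 in normal medium. Over all genes, 8.08% rose and 11.4% fell with FP001, and 4.31% rose and 5.76% fell in normal medium. The call of HFE was lost without any single array other than low-attachment replicate 1 (adjusted p from 0.0629 to 0.241), and that of NEO1 without either attachment array or low-attachment replicate 1 or 2 (0.0665 to 0.145). With the 2 groups alone both were lost (0.0798 and 0.0578), and HFE was also lost when centred on medians (0.0737) and with no filter (0.0536). Of 4 storage and export genes tested of 11, PCBP2, an iron chaperone, fell with FP001 (−0.53 ± 0.16, adjusted p = 0.0423), and missed the threshold without either attachment array (0.173 and 0.14), low-attachment replicate 2 or 3 (0.0546 and 0.0567) or FP001 replicate 1, where it was −0.33 (0.053). It also did so under quantile normalization (0.0719), with no filter (0.0508) and with the 2 groups alone (0.0596).

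Around HPX, 8 heme scavenging and breakdown genes were tested of 16. With FP001 against attachment plates 2 rose and 2 fell, and in normal medium 2 rose and 3 fell (list medians 0.12 and 0.015). AMBP rose by 0.47 ± 0.10 in log2 with FP001 (adjusted p = 0.0105) and 0.76 ± 0.10 in normal medium (adjusted p = 0.00164). Its call with FP001 ended without attachment replicate 2 or 3, at 0.479 and 0.462. BLVRB rose by 0.51 ± 0.07 and 0.30 ± 0.07 (adjusted p = 0.00091 and 0.0189), and was not followed through the alternatives. Over all genes, 8.08% rose and 11.4% fell with FP001, and 4.31% rose and 5.76% fell in normal medium. Of 6 heme synthesis genes tested of 9, ALAD rose and CPOX fell in both comparisons. Without attachment replicate 2 the adjusted p was 0.099 and 0.0966 for ALAD and 0.195 and 0.242 for CPOX, with FP001 and in normal medium, and without attachment replicate 3 it was 0.0778 and 0.0849 for ALAD. Leaving out FP001 replicate 1 (ALAD, 0.0552, and CPOX, 0.0539) or 2 (CPOX, 0.0713), or in normal medium low-attachment replicate 2 (ALAD, 0.0533, and CPOX, 0.0944), low-attachment replicate 3 (CPOX, 0.0657) or attachment replicate 3 (CPOX, 0.0524), also ended a call, as did quantile normalization (0.0505) and the 2 groups alone (0.0594) for CPOX in normal medium. LRP1, the receptor for hemopexin bound to heme, fell with FP001 by 0.68 ± 0.14 in log2 (adjusted p = 0.00829, and 0.0953 without attachment replicate 2). In normal medium it fell by 0.52 ± 0.14 (adjusted p = 0.0396), a call that ended without attachment replicate 2 (−0.35, 0.286), low-attachment replicate 1, 2 or 3 (0.0999, 0.0624 and 0.0825) or FP001 replicate 2 (0.056), under quantile normalization (0.0533) and with no filter (0.0527). FLVCR1, which exports heme, fell by 0.95 ± 0.11 with FP001 (adjusted p = 0.000491) and by 0.89 ± 0.11 in normal medium (adjusted p = 0.00122). HMOX1, which breaks heme down, fell by 0.94 ± 0.25 in normal medium (adjusted p = 0.0412), with 273.7, 425.6 and 469.9 on low-attachment plates against 688.5 and 768.0 on attachment plates. It missed the threshold without attachment replicate 2 or 3 (0.146 and 0.189), low-attachment replicate 1 or 2 (0.0826 and 0.0589) or FP001 replicate 2 (0.0573).

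Around CP, 0 of 9 copper genes tested of 15 were called by limma in any of the 3 comparisons, and at an unadjusted p under 0.05 there was 1 of 9, in normal medium against attachment plates, where 26.4% of all genes were. The list medians were 0.05 and 0.01 with FP001 and in normal medium against attachment plates. The brightest, SCO1, a copper chaperone of cytochrome oxidase, had a log2 difference of −0.14 ± 0.08 with FP001 and −0.23 ± 0.08 in normal medium against attachment plates (adjusted p = 0.201 and 0.0854). Of 6 metallothionein genes and their regulator tested of 11, 3 fell with FP001 against attachment plates, where 11.4% of all genes fell (list medians −0.29 and −0.09). In normal medium limma called 0 of them, with 2 of 6 at an unadjusted p under 0.05, where 26.4% of all genes were, and the difference between these comparisons was not tested. MT1F, which binds copper and zinc, fell by 1.06 ± 0.20 in log2 (adjusted p = 0.00523), with 205.9, 150.5 and 146.3 with FP001 against 436.8 and 273.2 on attachment plates. All 3 calls, of MT1F, MT1X and MTF1, ended without attachment replicate 2 (adjusted p = 0.0599, 0.269 and 0.185), where MT1X was at −0.35, against −0.68 with all 8 arrays. The call of MT1X also ended without FP001 replicate 2 or 3 (0.088 and 0.0703), and that of MTF1 without attachment replicate 3 (0.057) or FP001 replicate 1 (0.0638) and under quantile normalization (0.0539).

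Among 11 acute-phase and liver plasma protein genes tested of 25, 3 rose and 4 fell with FP001 against attachment plates, and 3 rose and 1 fell in normal medium (list medians 0.14 and 0.13). APOH, CFB and TTR rose and LBP fell in both, and FGA, FGG and C3 fell with FP001. With FP001 the calls of APOH and CFB ended without some single arrays, and in normal medium that of APOH without attachment replicate 3. Over all genes, 8.08% rose and 11.4% fell with FP001, and 4.31% rose and 5.76% fell in normal medium. Between FP001 and normal medium on low-attachment plates limma called 0 of 11, with 5 at an unadjusted p under 0.05, where 11.6% of all genes were. With the replicate block FGA, FGG, C3 and CFB fell, by 0.74 to 1.13 in log2 (adjusted p from 0.0039 to 0.0399), where 1.30% of all genes were called. The rest of the list was not called. In the fit without the block FGB, APOH and AHSG were at −0.63, −0.37 and −0.21. TTR, LBP, APOA1 and VTN were at −0.04, −0.07, 0.01 and 0.07. TF and CP were lower in the same pairs. HP, the hemoglobin-binding haptoglobin, and the acute-phase genes SAA1, ORM1 and ORM2 were under the median on every array, and ALB, which encodes albumin, was under it on 6 of 8.

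Of 9 regulators tested of 19, 1 rose and 5 fell with FP001 against attachment plates, and 1 rose and 3 fell in normal medium, with SOCS3, a target and brake of STAT3 signalling, at −0.58 ± 0.12 in log2 with FP001 (adjusted p = 0.00856, and 0.0664 without attachment replicate 3). The list medians were −0.47 and −0.35. Over all genes, 8.08% rose and 11.4% fell with FP001, and 4.31% rose and 5.76% fell in normal medium. Of 11 hypoxia-response genes tested of 15, 7 fell with FP001 and 3 in normal medium against attachment plates (list medians −0.55 and −0.20). Again, 11.4% and 5.76% of all genes fell in these comparisons. BNIP3L, a mitophagy receptor, was the 1 listed gene called between FP001 and normal medium (−0.66 ± 0.08, adjusted p = 0.0198). It missed the threshold without low-attachment replicate 2 or 3 (0.073 and 0.0723) or without FP001 replicate 1, 2 or 3 (0.062, 0.155 and 0.0767).

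Of 12 epithelial and A549 markers 5 were named, and all 5 were above the median on all 8 arrays, as were 4 of 7 named alveolar type II markers (of 9). Of 9 hepatocyte markers 5 were named, with a summed intensity of 145.9 to 185.6 with FP001, 156.9 to 205.2 in normal medium and 107.1 to 116.0 on attachment plates. The summed level of 3 leukocyte markers (of 7 listed) was 621.9 to 953.5, 557.0 to 789.3 and 423.6 to 503.0 in the same groups, that of 3 fibroblast markers (of 7) was 133.9 to 493.0, 80.4 to 312.6 and 109.7 to 169.7, and that of 3 endothelial markers (of 5) was 55.8 to 71.5, 51.2 to 55.9 and 46.1 to 52.3. The summed level of the epithelial markers was 5127 to 5686, 4407 to 4746 and 4203 to 4359, and that of the alveolar markers 211.9 to 243.9, 218.6 to 222.0 and 192.7 to 204.6. No marker was at 0, and the hepatocyte marker F9 read 4.6 to 8.8 on the 8 arrays and the fibroblast marker DCN 3.3 to 3.9. The hepatocyte, leukocyte, epithelial and alveolar sums of both low-attachment groups lay above those of the attachment arrays without overlap. Of all genes tested, 26.5% did so with FP001 and 22.2% in normal medium. The epithelial sum was mostly KRT18, and limma called its members in both directions. EPCAM fell with FP001 (−0.53, adjusted p = 0.042) and KRT7 in normal medium (−0.54, adjusted p = 0.0422), while KRT19 rose in both and KRT18 with FP001. Of the leukocyte markers, LYZ rose in both comparisons and CD68 with FP001, and CD14 was not called. Most of the hepatocyte difference was TAT, a tyrosine-degrading enzyme gene, at 91.2, 51.3 and 77.2 with FP001, against 99.4, 67.8 and 62.2 in normal medium and 27.2 and 22.1 on attachment plates, while APOA1 and APOC3 did not pass the test. The part of other cell types in the CP and TF differences was not tested.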

How the data were processed

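Total RNA of 9 A549 samples was read on Affymetrix arrays after biotinylated cRNA was made from 100 ng by a 3' in vitro transcription protocol, per the labels' protocols. The deposited intensity values, on a linear scale, were made by the authors, per the submitters' processing notes, with MAS5. MAS5 settings and the genome build were not given in the sources used here. Sample titles gave the groups and replicate numbers, and columns were matched by sample identifier. Of 53617 probe sets, 16098 had a gene in GEO's annotation of the platform, and all their symbols could be updated by gene identifier, and 37519 were not named here. MAS5 values are taken as already scaled per array. They were used as log2 with no pseudocount.

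A probe set was kept if at least 3 of the 8 arrays read it no lower than their median, and the one with the highest mean stood for a gene (10916 genes). The 3 members passed on all 8 arrays. The 3 groups were fitted together with limma 3.58.1 in R 4.3.3 (lmFit, eBayes with a trend, two-sided, 5 residual and 5.6 prior degrees of freedom). P-values were adjusted with Benjamini-Hochberg over all genes and called under 0.05. The fit was tested on simulated data. The replicate number as a block over all 8 arrays was an alternative. Same-numbered low-attachment arrays deviated together (0.483, 0.309 and 0.231) and were taken as paired. Replicates 2 and 3 also did so weakly across numbers (0.133 and 0.0905). Mean intensities are mean log2 values turned back.

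Members and lists were chosen with earlier results of these data known, and the array left out was known then. The lists held iron uptake, iron storage and export, iron sensing and hepcidin, heme scavenging and breakdown, heme synthesis, copper, metallothioneins, acute-phase and liver plasma proteins, regulators, and hypoxia genes, beside markers of A549 and epithelial, alveolar type II, hepatocyte, fibroblast, leukocyte and endothelial cells. Most genes to follow were named by a rule. It took the members, the 3 genes nearest to each member, and up to 4 called genes of each list. Those with the largest change were taken, or the brightest gene where none was called. STC2 met the rule and was followed through the alternatives, but its values are not given in the text. FGA, FGG, HP, SAA1, ORM1, ORM2, ALB, F9, DCN, LCN2 and EPAS1 fall outside the rule and were chosen after their values were seen. BLVRB, TTR, FGB, AHSG, APOA1 and VTN fall outside it too. So do the markers EPCAM, KRT7, KRT18, KRT19, LYZ, CD68, CD14, TAT and APOC3, and the genes given as not among the named probe sets. Promoter windows came from RefSeq (GRCh38.p14), where 2 of the 3 members had one.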

Additional observations from a re-analysis of the deposited data

How the results depend on the processing

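The 3 members kept the sign of every difference but those of HPX under all alternatives, which were quantile normalization, centring on array medians, a pseudocount of 16, other filters, the replicate block, the 2 groups alone, all 9 arrays and each array left out. Without one array, the log2 difference from attachment plates with FP001 ran from −1.10 to −0.77 for TF, 0.30 to 0.94 for CP and −0.26 to 0.033 for HPX. In normal medium it ran from 0.15 to 0.75 for TF, 0.89 to 1.54 for CP and −0.11 to −0.022 for HPX. With FP001 against normal medium on low-attachment plates, it ran from −1.72 to −1.11 for TF, −0.69 to −0.50 for CP and −0.19 to 0.11 for HPX. The pseudocount, which shrinks dim genes by construction, put TF at −1.08 there.

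With the replicate block over all groups, TF was at −0.68 with FP001 and 0.66 in normal medium against attachment plates, whose numbers are not shown to pair with the others. In the same fit of all 8 arrays, the block raised the calls between FP001 and normal medium to 142 genes and 6 listed genes, against 12 and 1 without it. These calls do not rest on the low-attachment pairs alone. Of the 41 named calls none was lost with the block. Against attachment plates it called 39 listed genes with FP001 and 25 in normal medium, against 32 and 20, and the 26 named list genes gained the calls of HMOX1 with FP001 (adjusted p = 0.00237), STAT3 in normal medium (0.00881), and CFB and C3 between FP001 and normal medium (0.0039 and 0.015). The listed genes called there were 2 when centred on medians, 2 with the pseudocount, 2 with genes at or above the median on all 8 arrays, and 3 with the 2 groups alone. The cause was not tested.

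Calls against attachment plates over all genes ran from 660 to 2305 with FP001 (2126 with the 8 arrays) and from 362 to 1301 in normal medium (1100), lowest without attachment replicate 2. Without attachment replicate 3 they were 1106 and 449, without FP001 replicate 1 or 2 they were 1278 and 1335 with FP001, and without low-attachment replicate 3 they were 719 in normal medium. Listed genes called ran from 14 to 36 and from 10 to 21. Between FP001 and normal medium, calls ran from 0 to 11 genes and 0 to 3 listed genes. They were 0 without any one FP001 array (1039, 945 and 1374 at an unadjusted p under 0.05 by limma without replicate 1, 2 and 3) and 1 without low-attachment replicate 2 or 3.

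With attachment replicate 1 included, limma called 0 genes and 0 listed genes in each comparison, with 330, 198 and 11 at an unadjusted p under 0.05 for FP001 and normal medium against attachment plates and for FP001 against normal medium. CP then differed from attachment plates by 2.01 with FP001 and 2.6 in normal medium, and HPX by 0.583 and 0.606. Of 697 alternative values of 41 named calls, 560 kept the call, 114 lost it and 23 reversed, all with this array included. With FP001 these were PCBP2 (0.717), FLVCR1 (1.41), LRP1 (0.377), CPOX (0.644), MT1F (1.03), MT1X (0.773), MTF1 (1.60), C3 (0.55), FOXA1 (−1.02), SOCS3 (1.02), JAK1 (0.905), STAT3 (2.07), ANGPTL4 (0.0776), ADM (0.577) and BNIP3L (1.23). In normal medium these were FLVCR1 (1.47), LRP1 (0.542), CPOX (0.638), FOXA1 (−0.918), SOCS3 (0.955), JAK1 (0.996), ANGPTL4 (0.241) and ADM (0.668). That array read TF at 111.9, CP at 61.5 and HPX at 8.3. Its ranks followed no other array, so its values, and the reversals above, may not belong to the genes they are listed under.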

Other observations

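On replicate 1 of both low-attachment groups, where TF was low and CP high, 3 listed genes picked after their values were seen also stood apart. LCN2, which encodes lipocalin 2, a binder of iron-carrying siderophores, had 256.8, 134.2 and 111.9 with FP001 for replicates 1, 2 and 3, against 238.3, 105.6 and 103.8 in normal medium and 84.7 and 72.3 on attachment plates. HMOX1, the heme-degrading enzyme gene, had 323.7, 524.0 and 571.4 with FP001, against 273.7, 425.6 and 469.9 in normal medium and 688.5 and 768.0 on attachment plates. EPAS1, which encodes the hypoxia factor HIF-2alpha, had 269.8, 433.9 and 422.0 with FP001, against 257.9, 445.0 and 396.0 in normal medium and 515.0 and 612.6 on attachment plates. Replicate 1 was the highest for LCN2 and the lowest for HMOX1 and EPAS1 in both groups.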
